A study of Mus musculus with 5 samples.

Results

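The EGF receptor family was followed in mouse liver through 10 genes, namely the 4 receptors Egfr, Erbb2, Erbb3 and Erbb4, the 5 ligands Egf, Tgfa, Hbegf, Btc and Areg, and the inhibitor Errfi1. The genes were chosen by name, with earlier results of these data known. For each, a probe set (a group of array probes summarised as 1 value) that carries its symbol and no other was taken. Of the 10 genes 9 had such a probe set, and each of the 9 had exactly 1, out of 18820 genes named in this way. Areg was not named by any probe set and was not analysed here.

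The family consists of receptor tyrosine kinases that sit in the cell membrane and act in pairs. A ligand, cut loose from the surface of a cell by a membrane protease, binds the outer part of a receptor and brings the pair together, and the inner kinase parts then pass the signal to RAS, ERK and PI3 kinase. In liver, EGFR on hepatocytes is known for driving regrowth after tissue loss, and ERBB3, whose own kinase is weak, signals mainly through its partners. Errfi1 encodes MIG6, a feedback inhibitor that binds the kinase of the active receptor.

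Livers came from adult C57Bl/6 mice of 2 groups, which differed in the injected antibody alone per the labels. Control mice received a rat IgG control, and treated mice received M279, an antibody against CSF1R, the receptor for the macrophage growth factors CSF1 and IL-34. Each injection of 300 µg went into the peritoneal cavity, 3 times a week for 6 weeks. There were 3 control and 2 treated liver samples, each on 1 array. The labels do not say how many animals stand behind a sample, and p-values therefore reflect the spread among these 5 samples alone.

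All values below are log2 intensities, so that a difference of 1 is a doubling, and differences are treated minus control. The arrays were close in brightness (median intensity 32.5 to 33.9) and in profile (Pearson's r of 0.983 to 0.992 between pairs of arrays, across probe sets). The tissue label was checked against hepatocyte markers, and the 9 measured of 10 lay between 11.35 and 13.20 on every array. The gene of the antibody's target, Csf1r, was at 8.49, 8.68 and 8.61 on the controls and at 7.93 and 8.12 on the treated arrays. On bulk tissue, fewer cells of a type and less RNA per cell cannot be told apart.

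The question asked of the family was whether 6 weeks of CSF1R blockade came with other levels of its receptors, ligands or inhibitor. None of the 9 members passed an adjusted p of 0.05 in limma, a linear model with a spread shared across probe sets, adjusted over all 35556 probe sets, of which 0 (0%) passed. The clearest differences were lower values in treated liver for the ligand Btc (-0.66 ± 0.16, SE) and the receptor Erbb4 (-0.41 ± 0.13). Both had an unadjusted p under 0.05, which makes 2 of 9 members against 18.3% of the 18820 genes, and 2 lower against 8.4%. For 4 of 9 members the groups were apart, with every treated value above or below every control value, against 44.6% of genes. Of these Btc, Erbb4 and Errfi1 were lower (19.5% of genes) and Egf was higher (25.1% of genes). The counts of members with a low p or with groups apart were therefore close to those over all genes on the array.

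**Figure D1:**
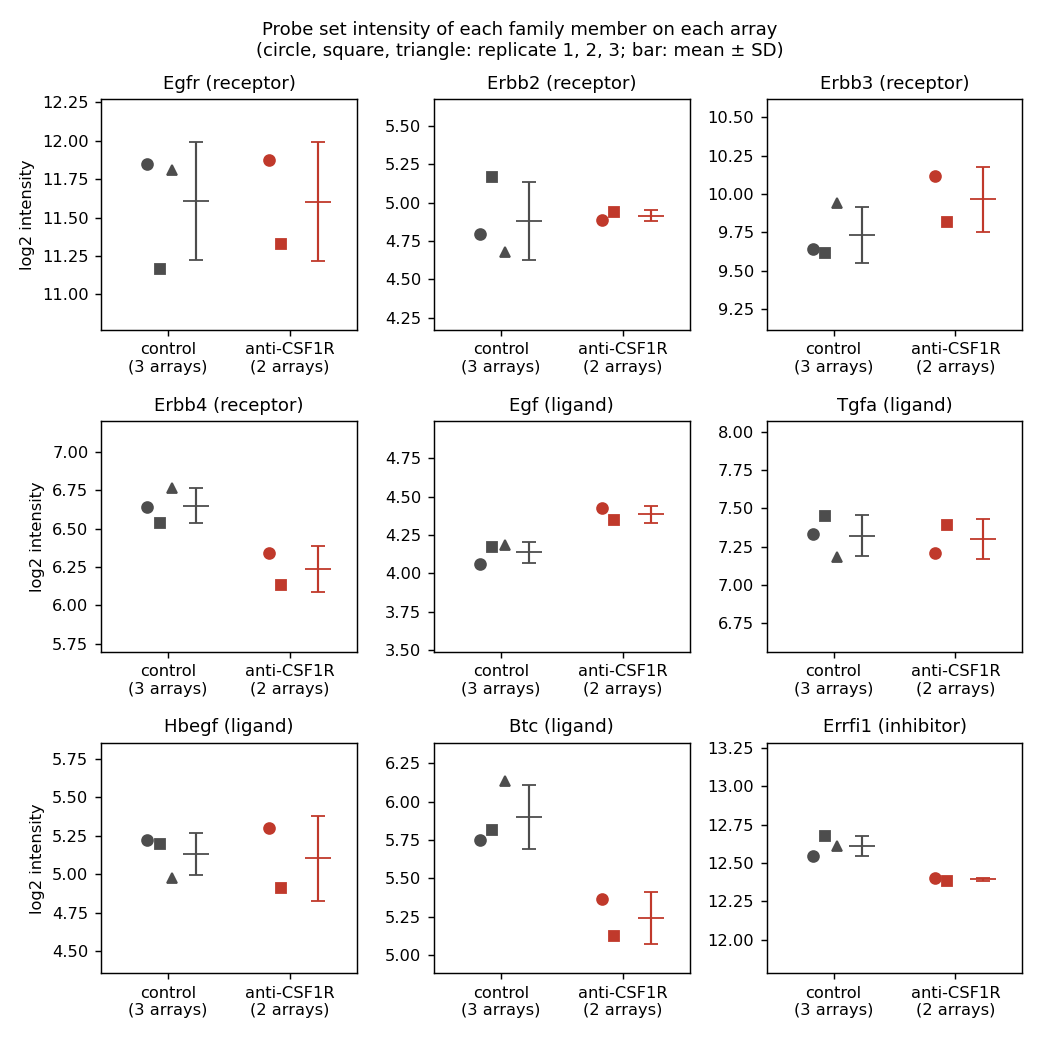
Log2 intensity of each measured member on each array, with controls in grey and treated arrays in red; the bars are the mean ± SD, and every vertical axis spans the same range. Btc, Erbb4 and Errfi1 lie lower and Egf higher on both treated arrays than on all controls, while Egfr varies more within each group than between them.

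Egfr, the receptor for EGF, TGF-alpha and the other ligands among the members, was at 11.85, 11.16 and 11.81 on control replicates 1, 2 and 3 and at 11.88 and 11.33 on treated replicates 1 and 2. Control replicate 2 and treated replicate 2 were low and the other 3 arrays high, so the groups overlapped. The means were 11.61 ± 0.38 (SD, n = 3) in controls and 11.60 ± 0.39 (SD, n = 2) in treated liver. The difference of -0.0034 ± 0.27 (SE) had a 95% interval of -0.66 to 0.65 (limma, adjusted p = 0.995), the widest of the 9 members, which leaves room for changes of either sign. Treated replicate 1 stood 0.27 above the control mean and treated replicate 2 stood at -0.28 from it. Without control replicate 2 the difference was -0.23.

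Erbb3, the receptor with a weak kinase that binds neuregulins, was at 9.64, 9.62 and 9.94 on the controls and at 10.11 and 9.82 on the treated arrays. Treated replicate 1 was the highest array of all, but treated replicate 2 lay under control replicate 3. The difference was 0.23 ± 0.16 (SE), with a 95% interval of -0.15 to 0.62 (limma, adjusted p = 0.426). It was 0.084 without treated replicate 1 and 0.38 without treated replicate 2.

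Erbb2, the receptor that has no ligand of its own and serves as a partner, was at 4.80, 5.17 and 4.68 on the controls and at 4.89 and 4.94 on the treated arrays. Both treated values fell within the range of the controls. The difference was 0.03 ± 0.17 (SE; 95% interval -0.37 to 0.44; limma, adjusted p = 0.916). Its probe set was dim, at percentile 47.9 of mean intensity over all probe sets.

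Erbb4, the other neuregulin receptor, which also binds betacellulin and HB-EGF, was at 6.64, 6.54 and 6.77 on the controls and at 6.34 and 6.13 on the treated arrays. All 3 controls were above both treated arrays. The means were 6.65 ± 0.11 (SD, n = 3) and 6.24 ± 0.15 (SD, n = 2), so the treated level was 0.752 of the control level. The difference of -0.41 ± 0.13 (SE) had a 95% interval of -0.72 to -0.10 (limma, adjusted p = 0.216). It was -0.31 without treated replicate 2 and -0.52 without treated replicate 1. Cyclic loess, which evens out intensity-dependent shifts between arrays, gave -0.28, and quantile normalization -0.25.

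Btc encodes betacellulin, a ligand of both EGFR and ERBB4, and it had the largest difference among the 9 members. Its values were 5.75, 5.81 and 6.14 on the controls and 5.36 and 5.13 on the treated arrays. The lowest control exceeded the higher treated array by more than the SD of either group, and the groups did not overlap. The means were 5.90 ± 0.21 (SD, n = 3) and 5.24 ± 0.17 (SD, n = 2), a treated level of 0.634 of the control level. The difference of -0.66 ± 0.16 (SE) had a 95% interval of -1.05 to -0.27 (limma, adjusted p = 0.192). Over the 15 other settings tried, Btc stayed between -0.78 and -0.49, with an adjusted p in limma between 0.0828 and 0.411.

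Egf encodes epidermal growth factor, for which the family is named. It was at 4.06, 4.17 and 4.18 on the controls and at 4.42 and 4.35 on the treated arrays. Both treated arrays were above all controls, by a difference of 0.25 ± 0.11 (SE; 95% interval -0.01 to 0.51; limma, adjusted p = 0.285). The probe set was the dimmest of the 9, at percentile 37.2 of mean intensity, where most probe sets were higher on the treated arrays. Cyclic loess gave 0.12.

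Tgfa, the gene of transforming growth factor alpha, a ligand that hepatocytes can make for their own EGFR, was at 7.34, 7.45 and 7.18 on the controls and at 7.21 and 7.39 on the treated arrays. Both treated values lay inside the control range. The difference was -0.02 ± 0.13 (SE; 95% interval -0.34 to 0.30; limma, adjusted p = 0.935), and its sign turned under several settings.

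Hbegf, the gene of heparin-binding EGF-like growth factor, which binds EGFR and ERBB4, was at 5.22, 5.19 and 4.98 on the controls and at 5.30 and 4.91 on the treated arrays. The highest and the lowest array were both treated ones. The difference was -0.03 ± 0.16 (SE; 95% interval -0.41 to 0.36; limma, adjusted p = 0.930).

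Errfi1, the inhibitor, was at 12.55, 12.68 and 12.61 on the controls and at 12.40 and 12.39 on the treated arrays. The treated arrays lay close together and below all 3 controls. The means were 12.61 ± 0.06 (SD, n = 3) and 12.39 ± 0.01 (SD, n = 2), a treated level of 0.860 of the control level. The difference of -0.22 ± 0.10 (SE) had a 95% interval of -0.47 to 0.04 (limma, adjusted p = 0.310). Its probe set was the brightest of the 9, at percentile 99.7 of mean intensity. Leaving out 1 array at a time gave -0.25 to -0.19, and cyclic loess gave -0.34.

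**Figure D2:**
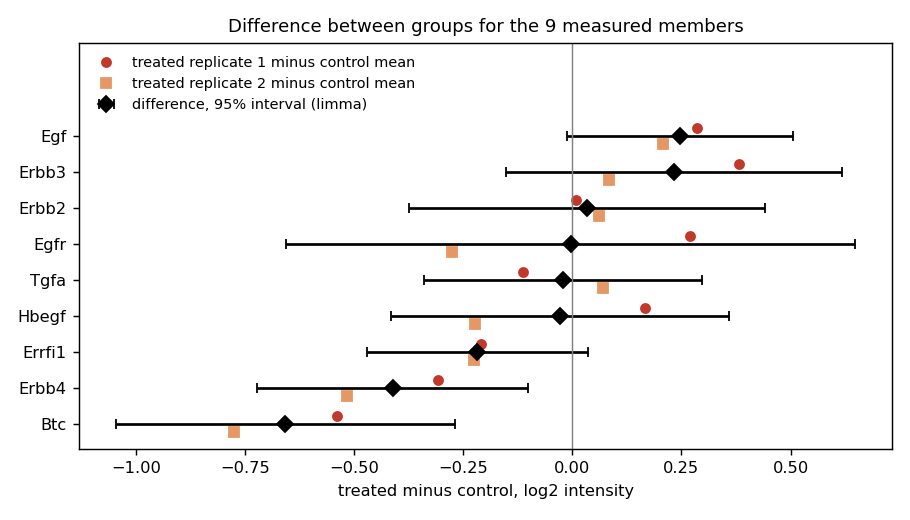
Treated minus control log2 difference for the 9 measured members, with the limma estimate and its 95% interval (diamonds and bars) and each treated array against the control mean (circles for replicate 1, squares for replicate 2). Both treated arrays of Btc, Erbb4 and Errfi1 fall left of 0, and the intervals of Btc and Erbb4 leave out 0, while those of Egfr, Tgfa and Hbegf have treated arrays on opposite sides of it.

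The 3 members that were lower on both treated arrays are shown by the 250 bases before a transcript start, from RefSeq's annotation of GRCm38.p6, so that a reader can see what sequence their starts share. Of the 10 genes 8 had a promoter in that table. Capitals mark matches, on either strand, to 6 motifs: the TATA box (TATAAA), the CCAAT box (CCAAT), the GC box (GGGCGG), the E-box (CACGTG), the AP-1 site (TGANTCA) and the cyclic AMP response element, CRE (TGACGTCA).
Btc, chr5:91402995-91403244, minus strand: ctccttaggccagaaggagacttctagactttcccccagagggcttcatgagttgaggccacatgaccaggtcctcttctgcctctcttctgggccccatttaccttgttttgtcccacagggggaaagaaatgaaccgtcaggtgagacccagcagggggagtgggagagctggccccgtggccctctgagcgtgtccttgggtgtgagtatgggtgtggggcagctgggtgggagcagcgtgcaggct
Erbb4, chr1:69108060-69108309, minus strand, with another transcript model starting further out: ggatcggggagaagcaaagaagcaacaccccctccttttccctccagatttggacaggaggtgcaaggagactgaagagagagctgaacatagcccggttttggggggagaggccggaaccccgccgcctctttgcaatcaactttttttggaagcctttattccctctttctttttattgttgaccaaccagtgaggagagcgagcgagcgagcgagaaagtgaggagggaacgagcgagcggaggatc
Errfi1, chr4:150854820-150855069, plus strand, inner of its 2 listed starts: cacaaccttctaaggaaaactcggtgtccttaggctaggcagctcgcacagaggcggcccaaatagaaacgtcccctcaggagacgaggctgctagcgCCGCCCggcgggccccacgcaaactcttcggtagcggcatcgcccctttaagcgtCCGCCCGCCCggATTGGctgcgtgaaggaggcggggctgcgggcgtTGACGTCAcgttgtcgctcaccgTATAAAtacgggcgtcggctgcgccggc
The Btc and Erbb4 stretches held none of the 6 motifs. The Errfi1 stretch held a TATA box 28 bases before the start, a CRE 51 bases before it, a CCAAT box and 3 GC boxes, of which 2 overlap by 2 bases. Of 32851 promoters in the table, the same length before the start held a TATA box in 12.4%, a CCAAT box in 33.8%, a GC box in 32.7%, an E-box in 6.02%, an AP-1 site in 6.75% and a CRE in 1.55%. Errfi1's outer start held none of the 6, had 38.0% G and C and 1 CpG, and the inner one had 64.8% and 30 CpGs, against medians of 52.4% and 6. Btc had 59.6% G and C with 4 CpGs, and Erbb4 54.0% with 12. A match is a description of the letters and not a binding site.

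Differences between the groups depended on intensity, which bears on how the members are read. With all probe sets divided into 10 groups of equal size by mean intensity, the median difference was 0.18 in the third group, from 3.40 to 3.86, and -0.15 in the seventh, from 5.85 to 6.80. Egf lay in a group with a median of 0.16, in which 31.5% of probe sets were at least as high as it. Erbb4 lay in the group at -0.15, in which 18.1% were at least as low and 35.1% had both treated arrays below all controls. Btc lay in a group with a median of -0.08, in which 6.61% were at least as low. Errfi1 lay in the brightest group, with a median of 0.03, in which 15.7% were at least as low.

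**Figure D3:**
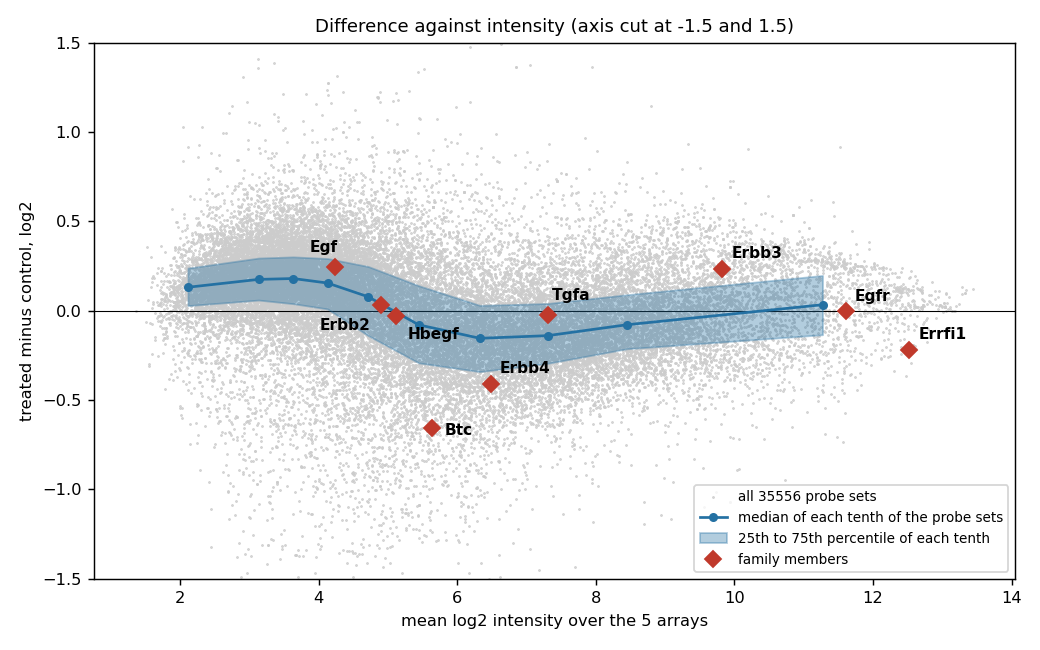
Treated minus control log2 difference of every probe set (grey) against its mean log2 intensity, with the median (blue line) and the 25th to 75th percentile (band) of 10 groups of equal size, and the 9 members as red diamonds. Btc lies well below the median of its group and Egf close to the raised median of dim probe sets.

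Other genes that feed or follow the receptors were read in 5 lists, of which 75 of 81 genes were measured. None passed an adjusted p of 0.05 in limma. With no adjustment, 3 higher genes (9.91% of all genes) and 8 lower ones (8.4% of all genes) had a p under 0.05 in limma. The groups were apart for 8 higher genes (25.1% of all genes) and 28 lower ones (19.5% of all genes). The median of the 75 was -0.13, against 0.04 over the 18820 genes. Of the 75, however, 44 lie in the seventh to ninth intensity groups, whose medians were -0.15, -0.14 and -0.08. In those 30.0% to 39.3% of probe sets were lower with groups apart, and in the other intensity groups 2.84% to 22.2%. The share of the 75 was 37.3%, over genes from both, so none of these shares is matched to the 75 by intensity.

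The other 6 ligands of the family (Ereg, Epgn and the neuregulin genes Nrg1 to Nrg4) had a median of 0.04, which turned to -0.07 with quantile normalization and -0.10 with cyclic loess. Nrg2 was at 4.96, 4.60 and 4.61 on the controls and at 5.10 and 5.17 on the treated arrays, a difference of 0.41 ± 0.15 (SE; limma, adjusted p = 0.241). Ereg, the gene of epiregulin, was at 0.30 ± 0.13 (SE; limma, adjusted p = 0.290). Both had treated arrays above all controls at an intensity where the typical probe set was also higher.

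The next list held membrane proteases that release the ligands, rhomboid proteins that act with them, and Timp3, an inhibitor of such proteases. It had lower values for 8 of 10 genes, Timp3 among them, with a median of -0.17. Of all genes 43.7% were below 0. Adam17, the main protease that cuts TGF-alpha, HB-EGF and amphiregulin free, was at 7.60, 7.68 and 7.59 on the controls and at 7.36 and 7.17 on the treated arrays. The controls lay within a narrow range and the treated arrays below it, a difference of -0.36 ± 0.11 (SE; limma, adjusted p = 0.220). Rhbdf2, which carries ADAM17 to the cell surface, was at 7.23, 7.30 and 7.23 on the controls and at 7.09 and 6.76 on the treated arrays. Its difference of -0.33 ± 0.13 (SE; limma, adjusted p = 0.263) was -0.17 without treated replicate 2, and with cyclic loess Adam17 was at -0.24 and Rhbdf2 at -0.20. Adam10, which cuts betacellulin and EGF, was at -0.26 ± 0.14 (SE) with overlapping groups, and at -0.10 without treated replicate 2.

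Adaptors and kinases downstream of the receptors had lower values for 17 of 22 measured genes (43.7% of all genes). The small median of -0.10 moved to -0.01 with cyclic loess. The groups were apart for 6 lower genes (19.5% of all genes) and 2 higher ones (25.1% of all genes). Of the 22 genes 16 lie in the seventh to ninth intensity groups, whose medians were below 0. Map2k2, the gene of the ERK kinase MEK2, was higher on both treated arrays, at 9.24 and 9.47 against 9.08, 8.89 and 8.99, a difference of 0.37 ± 0.13 (SE; limma, adjusted p = 0.233). Pik3r1, which encodes the regulatory subunit of PI3 kinase, was lower, at 9.32 and 8.79 against 9.60, 9.46 and 9.54, a difference of -0.48 ± 0.18 (SE; limma, adjusted p = 0.244). Most of the Pik3r1 difference came from treated replicate 2, without which it was -0.21.

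Genes that end or damp the signal had lower values for 16 of 23 (43.7% of all genes), with a median of -0.15. The groups were apart and lower for 11 of 23 (47.8%), against 19.5% of all genes, and higher for 2 (25.1% of all genes). Of the 23 genes 15 lie in the seventh to ninth intensity groups, where 30.0% to 39.3% of probe sets were lower with groups apart. Spry4, a Sprouty inhibitor of the RAS to ERK step, ran the other way: it was at 7.09, 6.44 and 6.64 on the controls and at 7.24 and 7.38 on the treated arrays. Both treated arrays were above all controls, and the difference was 0.59 ± 0.20 (SE; limma, adjusted p = 0.236), or 0.72 with cyclic loess. Dusp1, a phosphatase that switches off MAP kinases, had the most negative difference of the list. It was at 11.14, 10.25 and 9.87 on the controls and 9.70 and 9.36 on the treated arrays. Its difference of -0.89 ± 0.37 (SE) was -0.53 without control replicate 1. Lrig2, a transmembrane relative of the EGFR inhibitor LRIG1, was at 6.77, 7.21 and 7.03 on the controls and at 6.63 and 6.48 on the treated arrays, a difference of -0.44 ± 0.16 (SE; limma, adjusted p = 0.237).

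Transcripts that ERK signalling is known to induce had a median of -0.29, with 11 of 14 measured genes below 0 (43.7% of all genes). This was the lowest median of the 5 lists, but without treated replicate 1 it was -0.26 and that of the protease list -0.30. For 5 of 14 (35.7%) the groups were apart and lower, against 19.5% of all genes and 30.0% to 39.3% of probe sets in the seventh to ninth intensity groups, where 8 of the 14 lie. The median was -0.17 with quantile normalization and -0.20 without control replicate 1. Ccnd1, the gene of cyclin D1, which takes cells into the division cycle, was at 8.01, 8.33 and 8.09 on the controls and at 7.61 and 7.55 on the treated arrays. The groups were apart, with a difference of -0.56 ± 0.13 (SE; limma, adjusted p = 0.192), or -0.46 without control replicate 2. Etv5, a transcription factor downstream of ERK, was at -0.30 ± 0.11 (SE; limma, adjusted p = 0.248). Myc was at 6.19, 7.47 and 6.33 on the controls and at 5.65 and 5.69 on the treated arrays, and control replicate 2 carried much of its difference of -0.99 ± 0.38 (SE). Egr1, an immediate product of ERK activity, spread from 5.70 to 7.85 among the controls alone, with treated arrays at 5.91 and 4.88.

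**Figure D4:**
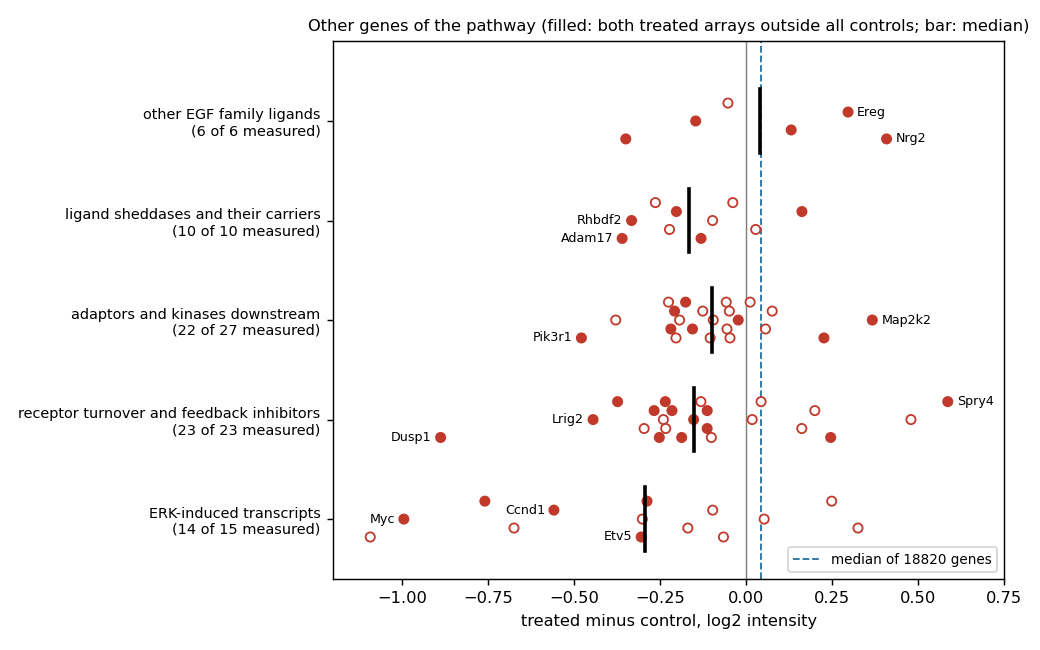
Treated minus control log2 difference of each measured gene in 5 lists of the pathway; points are filled where both treated arrays lay outside all controls, black bars are list medians and the dashed line is the median of 18820 genes. The list of ERK-induced transcripts has a median of -0.29 over all 5 arrays, and Spry4 is the gene with the highest value, 0.59.

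Markers of the cells in the tissue were set beside the members, and their part in the differences was not tested. Hepatocyte markers had a mean log2 level of 12.62 to 12.65 on the controls and 12.59 to 12.63 on the treated arrays. Alb was at 0.00 ± 0.10 (SE) and Apoa1 at -0.01 ± 0.10, and the list ranged from -0.29 for Tat to 0.11 for Cyp2e1. The groups were apart for 3 higher hepatocyte markers (25.1% of all genes) and 2 lower ones (19.5% of all genes). The 7 measured of 10 bile duct cell markers had mean levels of 4.88 to 5.02 and 4.66 to 4.98. Of these 5 of 7 were below 0 (43.7% of all genes), with a median of -0.05. Sox9, the brightest of them, was lower on both treated arrays (-0.51 ± 0.15, SE), as was the dim Muc1 (-0.44 ± 0.13). Krt19 was at 0.20 ± 0.26, with treated replicate 1 at 0.63 and treated replicate 2 at -0.23 from the control mean. The 12 macrophage and Kupffer cell markers had mean levels of 8.05 to 8.23 on the controls, 7.74 on treated replicate 1 and 8.13 on treated replicate 2. Of these 10 were below 0 (43.7% of all genes), with a median of -0.27. Among them were Ctss at -0.60, Mpeg1 at -0.57, C1qb at -0.35 ± 0.16 and Vsig4 at -0.12 ± 0.18. The groups were apart for 5 lower macrophage markers (19.5% of all genes) and 1 higher one (25.1% of all genes). On treated replicate 2, Vsig4, Timd4, Cd5l and C1qa lay above the control mean, by 0.11, 0.04, 0.21 and 0.22. Over both treated arrays Cd5l was at 0.03. Marco, a scavenger receptor, went the other way, at 6.11 and 6.36 on the treated arrays against 5.14, 4.89 and 4.67 (1.34 ± 0.17, SE; limma, adjusted p = 0.175), and it lifts the list's treated means. Sinusoidal endothelial markers (8 genes) had mean levels of 8.66 to 8.76 and 8.60 to 8.72, with 5 of 8 below 0 and a median of -0.12. They ranged from -0.33 for Lyve1 to 0.31 for Clec4g, with Fcgr2b at 0.18. Stellate cell markers (8 genes) had mean levels of 7.53 to 7.69 and 7.63 to 7.69, with Dcn at 0.02 and Reln at -0.02. They ranged from -0.28 for Pdgfrb to 0.38 for Rgs5, and Rgs5 and Lrat (0.36) were above all controls on both treated arrays. Markers of T, B and NK cells (7 of 8 measured) overlapped, at 4.27 to 4.46 and 4.23 to 4.57, with Cd3e at -0.01 and Cd79a at -0.08. Those of neutrophils (7 of 8) were dim, in an intensity range where probe sets in general had medians of 0.08 to 0.18. Their mean levels were 3.80 to 3.98 and 4.06 to 4.10, with 5 of 7 above 0, as were 10590 of all 18820 genes. None passed an adjusted p of 0.05 in limma. The differences ranged from -0.05 for Ngp to 0.54 for Retnlg, with S100a9 at 0.31 and S100a8 at 0.23. The groups were apart for 4 higher neutrophil markers (25.1% of all genes) and 0 lower ones (19.5% of all genes). The Y-linked genes Eif2s3y, Uty and Kdm5d lay between 7.55 and 9.04 and Xist between 3.10 and 3.34 on all 5 arrays. The pattern of high Y-linked genes and low Xist was therefore the same on every array. Within it, Kdm5d (-0.23) and Uty (-0.21) were lower on both treated arrays than on all controls (19.5% of all genes).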

How the data were processed

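Liver RNA was extracted with Trizol, amplified as cDNA and biotin-labelled, per the labels' protocols. The authors deposited linear probe set intensity values. The submitters' processing notes name Affymetrix Expression Console 1.1; its settings for background and normalization are not stated here, so shifts between arrays may remain or may have been evened out. No detection calls or depths were used, and few arrays limit the precision (median SE 0.138 on the log2 scale).

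Log2 was taken with no pseudocount or filter. Of 35556 probe sets, 21218 had 1 symbol, 1881 had several and 12457 were not listed in the platform annotation, and each gene was read from its probe set with the highest mean. The test was limma 3.58.1 in R 4.3.3 (two-sided, 3 residual and 3.03 prior degrees of freedom; Benjamini-Hochberg over all probe sets, threshold 0.05). Exact permutation of 2 against 3 arrays could reach 0.1 at best and was not used. On simulated data for this comparison (10 sets of 35556 probe sets, 200 changed in each), the share recovered was 71.2% for 2-fold and 98.4% for 4-fold changes, with 127 false calls in all. The simulated noise was normal and independent between probe sets, and the planted changes ease the adjustment. These shares may therefore not hold for the real arrays. There Marco, 2.53-fold higher in treated liver, had an adjusted p of 0.175 in limma. Plots used matplotlib 3.10.9 under Python 3.11.15.

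Members and lists were chosen with earlier results of these data known. Named genes are all members, Csf1r, the 2 of smallest p in each pathway list and the 2 brightest of each marker list. Adam10, Dusp1, Myc, Egr1, Tat, Cyp2e1, Muc1, Ctss, Mpeg1, Marco, Timd4, Cd5l, C1qa, Lyve1, Rgs5, Lrat, Pdgfrb, Ngp, Retnlg, Timp3, Xist and Kdm5d, and the motifs, were chosen after values were seen. The 15 alternatives were 3 other normalizations, a pseudocount of 16, 2 filters, 1 probe set per gene, another variance model, array weights, a replicate block and leaving out each array.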

Additional observations from a re-analysis of the deposited data

How the results depend on the processing

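No family member and no pathway gene passed an adjusted p of 0.05 in limma under any of the 15 alternatives. With 1 probe set per gene, 14 of 18820 genes passed, where none of 35556 probe sets had. At an unadjusted p under 0.05 the members numbered 1 to 3 of those tested, and Btc was among them each time, while 11.6% to 24.2% of all probe sets tested had such a p. Erbb3, Erbb4, Egf, Btc and Errfi1 kept their direction throughout. The 4 members near 0 did not. Quantile normalization turned Tgfa to 0.11 and Hbegf to 0.031. Centring on medians turned Egfr to 0.034, Tgfa to 0.016 and Hbegf to 0.010. Cyclic loess turned Erbb2 to -0.0031 and Tgfa to 0.11, and array weights turned Tgfa to 0.0025. Leaving out 1 array gave -0.28 to 0.27 for Egfr, -0.068 to 0.18 for Erbb2, -0.11 to 0.070 for Tgfa and -0.22 to 0.17 for Hbegf. The cause of these turns was not tested. With the replicate number as a block, Egfr was at 0.098 and Erbb2 at -0.068, and 0 probe sets passed. Control replicate 3 has no same-numbered treated array, so the block gave the same differences as leaving that array out. The deviations of same-numbered arrays from their group means had correlations of 0.027 and 0.033. The deviations of 2 treated arrays from their mean mirror each other, so these values cannot show whether same-numbered arrays were paired. Egf and Erbb2 lay below the median intensity and have no value under that filter. Each measured member had 1 probe set, so other probe sets could not be tried.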
